A study of Homo sapiens with 24 samples.

Results

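The 14-3-3 protein family is encoded in humans by 7 genes, YWHAB, YWHAE, YWHAG, YWHAH, YWHAQ, YWHAZ and SFN, and their transcripts were followed here in cells made to express 1 of 7 miRNAs. The genes were chosen by symbol, all 7 were matched among the 29794 genes of each count table, and all 7 had enough reads to be tested in both batches. Poly(A)+ RNA of Flp-In T-REx 293 cells, a clonal derivative of the human embryonic kidney line HEK293, was sequenced in 24 libraries. In batch 1, 2 libraries each came from cells with the empty vector, with miR-1 and with miR-122. In batch 2, 3 libraries each came from cells with the empty vector, with miR-133a, with miR-155, and with each of miR-373, miR-372 and miR-302a. All groups, the empty vector included, carried an integrated lentiviral cassette for GFP behind a doxycycline-inducible CMV promoter, were selected with Geneticin and were treated with 1 µg/mL doxycycline for 7 days. The miRNA groups differed from the empty vector by a synthetic hairpin in the intron of that cassette, so that each miRNA was made from an artificial backbone and not from its own gene. The comparison asked how each 14-3-3 transcript differed from the empty vector of the same batch.

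14-3-3 proteins are dimeric adaptors that bind phosphorylated serine or threonine motifs in other proteins and thereby hold kinases, phosphatases and transcription factors in a given state or compartment. YWHAB (beta), YWHAE (epsilon), YWHAG (gamma), YWHAH (eta), YWHAQ (theta, also called tau) and YWHAZ (zeta) are made in most tissues. SFN (sigma, stratifin) is a p53-induced member of epithelia that retains cyclin B1 and CDK1 in the cytoplasm after DNA damage. miRNAs pair through their seed, bases 2 to 8, with complementary sites, mostly in 3′UTRs, and lower the target mRNA. YWHAZ and YWHAQ are among the genes that have been named as miR-1 targets.

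The mature miRNAs are shown because their seeds set which 14-3-3 transcripts hold a site. They were taken from RefSeq (GRCh38.p14), all 7 were matched by name, and the seed is in capitals.
miR-1: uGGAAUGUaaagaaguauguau
miR-122: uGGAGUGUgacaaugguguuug
miR-133a: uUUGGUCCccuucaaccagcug
miR-155: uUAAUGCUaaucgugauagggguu
miR-302a: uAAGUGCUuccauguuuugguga
miR-372: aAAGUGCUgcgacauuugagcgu
miR-373: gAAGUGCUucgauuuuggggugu
The last 3 shared the seed AAGUGCU and are called the same-seed miRNAs; they formed the only group with a common seed. The seeds of miR-1 and miR-122 differed by the substitution A5G, counted from the 5′ end of miR-1.

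Sites were read in the longest annotated 3′UTR of each gene as a match to the whole seed (7mer-m8, with the letters ACATTCC for miR-1, ACACTCC for miR-122, AGCATTA for miR-155, GGACCAA for miR-133a and AGCACTT for the same-seed miRNAs), as a match to bases 2 to 7 followed by A (7mer-A1), or as both (8mer), on the transcribed strand. Of the 13191 tested genes of batch 1 whose 3′UTR could be searched, 24.1% held at least 1 such site for miR-1 and 25.7% did for miR-122. Of the 13041 such genes of batch 2, the share was 30.1% for the shared seed, 19.2% for miR-155 and 17.2% for miR-133a. The windows below hold these sites in 3 members, with the site in capitals, on GRCh37.
YWHAQ, miR-1, 7mer-m8, chr2:9725009-9725015, minus strand: tcttaatttctACATTCCctcccttactc
YWHAQ, same-seed miRNAs, 7mer-m8, chr2:9724901-9724907, minus strand: ttgaatggaaaAGCACTTgccatctctgt
YWHAE, miR-1, 7mer-m8, chr17:1247743-1247749, minus strand: ctgaatgtgaaACATTCCtccttttttct
YWHAE, miR-155, 7mer-m8, chr17:1248469-1248475, minus strand: gaggctttttcAGCATTActgtgtcgtct
YWHAG, miR-122, 7mer-m8, chr7:75957698-75957704, minus strand: cctccccgaagACACTCCttccccaagta
The miR-1 and shared-seed sites of YWHAQ lay at bases 400 and 508 of a 3′UTR of 1319 bases. The miR-1 site of YWHAE lay near the end of a 3′UTR of 1172 bases, at base 992, and was held by 1 of its 5 annotated 3′UTRs. YWHAE also held a 7mer-A1 for miR-1 in 2 of its 5 annotated coding regions, and its miR-155 site was in 4 of the 5 3′UTRs. YWHAZ had the longest 3′UTR of the family, 4170 bases, and its sites are given by position alone. It held an 8mer for the shared seed at base 426, an 8mer for miR-1 at base 590, an 8mer for miR-155 at base 1353 and a 7mer-m8 for miR-1 at base 3641. Of its 11 annotated 3′UTRs, 6 held the 8mer for the shared seed, 6 that for miR-1 and 5 that for miR-155. How many held the 7mer-m8 at base 3641 was not counted apart from the 8mer for miR-1. No 14-3-3 3′UTR held a 7mer or 8mer for miR-133a, and those of YWHAH and SFN held none for any of the 7 miRNAs. In all, 13 of the 49 combinations of a member and a miRNA had a site.

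On GRCh37, YWHAB (ENSG00000166913.8) lies at chr20:43514343-43537173 on the plus strand, YWHAE (ENSG00000108953.12) at chr17:1247569-1303516 on the minus strand and YWHAG (ENSG00000170027.5) at chr7:75956116-75988308 on the minus strand. YWHAH (ENSG00000128245.10) lies at chr22:32340508-32353590 on the plus strand, YWHAQ (ENSG00000134308.9) at chr2:9724096-9771126 on the minus strand and SFN (ENSG00000175793.10), a gene with a 3′UTR of 497 bases, at chr1:27189640-27190947 on the plus strand. YWHAE was the most abundant 14-3-3 transcript per length and SFN the least (see the plot of levels per length). In the 3 empty vector libraries of batch 2, reads per 1000000 reads of the library (CPM, with library sizes scaled by TMM) and per kilobase of exon were 563 ± 18.8 (SD, n = 3) for YWHAE and 162 ± 6.55 for YWHAQ. YWHAB stood at 147 ± 4.45 CPM per kb, YWHAH at 71.3 ± 0.981, YWHAG at 58.6 ± 3.77 and YWHAZ at 48.7 ± 2.28. SFN stood at 2.8 ± 0.344 CPM per kb. The order was the same in the 2 empty vector libraries of batch 1, where YWHAE was at 541 ± 16.9 (SD, n = 2) and SFN at 2.54 ± 0.473 CPM per kb. No neighbours in this order overlapped in their ranges over the empty vector libraries of either batch. YWHAE exceeded 99.8% of the genes with reads, and SFN 42.9% in batch 1 and 44.7% in batch 2. The order of the members rests on summed exon length, which was 6842 bases for YWHAZ. Without the scaling by length, YWHAZ at 333 CPM stood above YWHAG at 219 and YWHAH at 143 in the empty vector of batch 2. There YWHAB at 493 CPM likewise stood above YWHAQ at 391. Without that scaling, YWHAE made up 44.3 to 47.7% of the reads of the family in the 24 libraries and SFN 0.0832 to 0.253%.

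**Figure D1:**
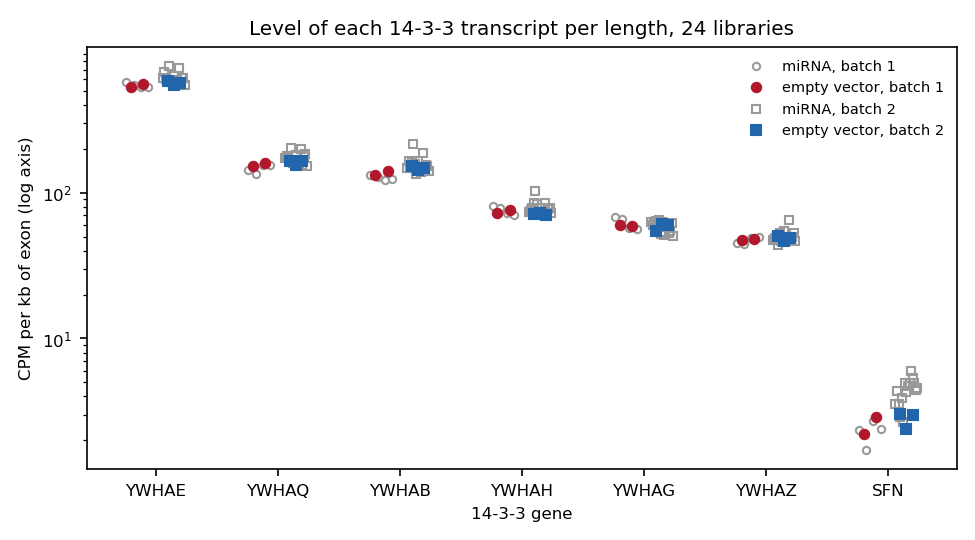
Level of each 14-3-3 transcript in CPM per kb of exon on a log axis, 1 point per library; filled symbols are the empty vector libraries of batch 1 (circles, n = 2) and batch 2 (squares, n = 3), and open grey symbols the miRNA libraries. YWHAE lies highest, at 541 and 563 CPM per kb in the empty vector, and SFN lies apart from the rest at 2.54 and 2.8.

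The libraries held 20153452 to 21595191 reads on exons in batch 1 and 13047400 to 35040778 in batch 2. Known targets fell with their miRNAs. Log2 changes were -1.99 for TWF1 with miR-1, -0.47 for ALDOA with miR-122, -1.95 for TAGLN2 with miR-133a and -1.11 for BACH1 with miR-155. LATS2 changed by -0.85 with miR-302a, -1.08 with miR-372 and -0.80 with miR-373. The largest adjusted p among these was 0.0031 (edgeR's quasi-likelihood test, Benjamini-Hochberg over all genes tested). All 6 measured markers of HEK293 cells had a median above 1 CPM, and the squamous markers KRT5, KRT14 and TP63, of the epithelia where SFN is abundant, stayed below 1 CPM in every library. Of 11 markers of muscle, liver, blood, endothelium and glia, 0 had a median above 1 CPM. In such bulk libraries, fewer cells with a transcript and less of it per cell cannot be told apart. The second libraries of miR-155, miR-302a and miR-372 stood apart from their groups: counts of all genes differed from the other libraries of the group by 15.2 to 33.6 times counting noise (chi-square per degree of freedom), against 2.38 to 6.71 between the other 2. Within the remaining groups of batch 2 this value ran from 2.45 (miR-133a) to 12.6 (miR-373). In the second libraries of miR-155, miR-302a and miR-372, YWHAB, YWHAE, YWHAH, YWHAQ and YWHAZ were the highest of their group. Batch 2 results are therefore given with and without these 3 libraries where a call changed. The YWHAH values are uncertain in a further way, since its exons overlap those of ENSG00000285404 on the same strand.

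In cells with miR-1, YWHAQ fell and YWHAG rose, by 11.5% and 13.2%. YWHAQ was at 371 and 389 CPM in the empty vector and at 348 and 324 with miR-1, so that both miR-1 libraries lay below both controls. The change was -0.18 on the log2 scale (SE 0.0425, adjusted p = 0.005). YWHAG was at 225 and 221 CPM in the empty vector and at 257 and 248 with miR-1, again without overlap. Its change was 0.18 (SE 0.0401, adjusted p = 0.0029), and its 3′UTR held no site for miR-1. Of the 7 members, 2 were called, and over all genes tested 24.5% were.

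YWHAZ, which held an 8mer and a 7mer-m8 for miR-1, was at 324 and 331 CPM in the empty vector and at 309 and 303 with miR-1. Its libraries did not overlap, but the change of -0.10 (SE 0.0387, 95% interval -0.18 to -0.02) did not pass the test (adjusted p = 0.069). For scale, 36.2% of the 773 tested genes whose best site for miR-1 was an 8mer were called lower, with a median change of -0.13. YWHAE, with a 7mer-m8 in its 3′UTR and a 7mer-A1 in its coding region, was at 1212 and 1267 CPM without and 1308 and 1263 with miR-1. The groups overlapped, and its change of 0.05 (interval -0.02 to 0.13, adjusted p = 0.33) had the opposite sign to that of YWHAQ and YWHAZ. Among the 1132 genes whose best site was a 7mer-m8, as in YWHAE and YWHAQ, 26.7% were called lower and the median was -0.07. Changes were -0.08 for YWHAB (adjusted p = 0.16) and 0.11 for YWHAH (adjusted p = 0.079), with no overlap of the libraries, and -0.32 for SFN (SE 0.203, adjusted p = 0.27), whose libraries overlapped. Groups did not overlap for 5 members, as for 61.3% of all genes tested. The calls rested on few libraries: without the second miR-1 library YWHAQ had an adjusted p of 0.175, without the first YWHAG had 0.0721, and without the first empty vector library YWHAB and YWHAZ were called lower as well (adjusted p = 0.023 and 0.0364), while without the second YWHAH was called higher (0.0178).

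**Figure D2:**
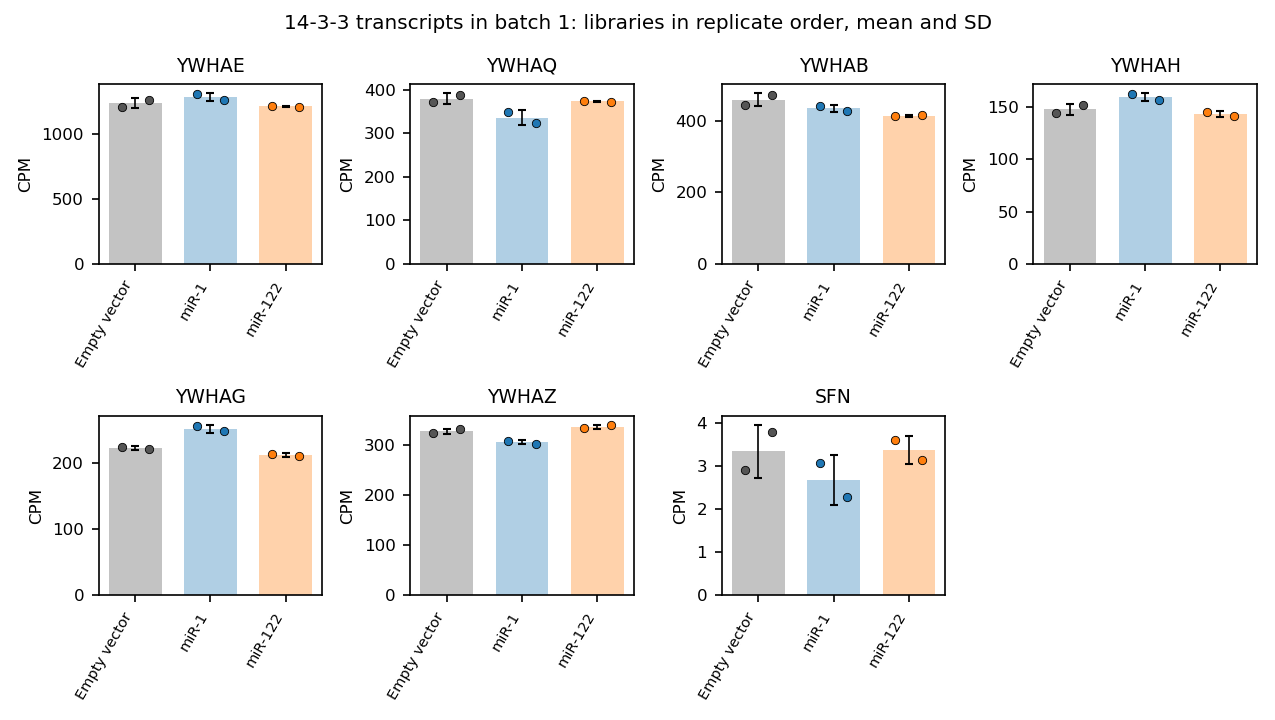
CPM of each 14-3-3 transcript in batch 1, with 1 point per library in replicate order, bars for the mean and error bars for the SD (n = 2 per group). YWHAQ and YWHAZ lie lower and YWHAG and YWHAH higher in both miR-1 libraries than in the empty vector and miR-122 libraries.

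With miR-122, 1 of 7 members was called, against 5.92% of all genes tested. YWHAB was at 445 and 472 CPM in the empty vector and at 412 and 416 with miR-122. It fell by 0.15 on the log2 scale (SE 0.04, adjusted p = 0.032), or 9.7%, with no overlap. YWHAG, lower, and YWHAZ, higher, did not overlap between the groups either, as was so for 47.6% of all genes tested. The site of YWHAB was a 7mer-A1, a class in which 4.96% of 2119 genes were called lower with miR-122 and the median change was -0.01. It lay in repeated sequence: the 18 bases from the start of the site occurred 2926 times on both strands of chromosome 20. YWHAG, with the 7mer-m8, changed by -0.07 (interval -0.15 to 0.01, adjusted p = 0.37), where 14.9% of the 787 genes of that class were called lower. The call of YWHAB was lost in the fit of only the 2 groups (adjusted p = 0.0714), with DESeq2 (0.0762), and without the second empty vector library, the first miR-122 library or the second miR-122 library (0.102, 0.264 and 0.18). Changes of the other members lay between -0.07 and 0.04 on the log2 scale.

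miR-1 and miR-122 were also compared with each other, since their seeds differ by a single base. The groups did not overlap for any of the 7 members, as for 67.3% of all genes, and 4 members were called, against 31.2% of all genes. YWHAG rose and YWHAQ and YWHAZ fell with miR-1 relative to miR-122. YWHAG was at 252 ± 6.18 CPM (SD, n = 2) with miR-1 and 212 ± 2.97 with miR-122, a difference of 0.25 on the log2 scale (SE 0.0402, adjusted p = 0.0001). YWHAH differed by 0.16 (SE 0.0438, adjusted p = 0.011), from 143 ± 2.78 CPM with miR-122 to 160 ± 3.93 with miR-1. YWHAQ differed by -0.15 (SE 0.0425, adjusted p = 0.011) and YWHAZ, at 306 ± 4.39 against 337 ± 4.15 CPM, by -0.14 (SE 0.0387, adjusted p = 0.0098). YWHAQ and YWHAZ held a 3′UTR site for miR-1 and none for miR-122, and so did YWHAE, which was higher in both miR-1 libraries (0.08, SE 0.0372, adjusted p = 0.11) and was called higher in the fit of only the 2 groups (adjusted p = 0.0463). YWHAG was called whichever library was left out, and the other 3 lost their calls without some library: YWHAQ without the second miR-1 library or either miR-122 library (adjusted p = 0.272, 0.0843 and 0.0764), YWHAH without the first miR-1 or the second miR-122 library (0.133 and 0.113), and YWHAZ without any 1 of the 4 (0.0526 to 0.149).

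Of the 6 YWHA genes, YWHAH was called with miR-155 and none was with miR-133a. With miR-133a, 0 of 7 members were called, against 5.34% of all genes tested by edgeR; DESeq2 also called 0, and 1 member, SFN, had an unadjusted p under 0.05. YWHAE ran from 1246 to 1332 CPM in the empty vector and from 1372 to 1552 with miR-133a, and YWHAQ was at 391 ± 15.8 CPM (SD, n = 3) and 425 ± 6.21. Both were higher without overlap, with changes of 0.16 (SE 0.106, adjusted p = 0.41) and 0.12 (SE 0.104, adjusted p = 0.55). In all, 4 members did not overlap between these groups, where 35.4% of all genes did not. With miR-155, 1 member was called, against 7.63% of all genes. YWHAH rose from 143, 145 and 141 CPM in the empty vector to 169, 204 and 167 with miR-155. That is 26.0% more, or 0.33 on the log2 scale (SE 0.0835, adjusted p = 0.018), and every miR-155 library lay above every control. YWHAB and YWHAG did not overlap between these groups either, as was so for 30.8% of all genes tested. Without the second miR-155 library, the highest of the 3, the change was 0.24 (adjusted p = 0.139), and without the 3 libraries that stood apart it was 0.24 with an adjusted p of 0.0214. Without 1 of the 3 empty vector libraries the adjusted p was 0.0507, 0.0657 or 0.0801, and with only the 2 groups in the fit it was 0.0597.

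YWHAB was at 547, 722 and 525 CPM with miR-155, above the controls at 507, 478 and 494. Its change of 0.28 (SE 0.121, adjusted p = 0.17) did not pass the test, and the middle value came from the library that stood apart. Between miR-133a and miR-155 directly, YWHAH was called (-0.25, SE 0.0834, adjusted p = 0.049) and 16.7% of all genes were. YWHAH libraries ranged from 147 to 156 CPM with miR-133a, below all 3 of miR-155, and it was the only member that did not overlap, where 36.8% of all genes did not. Same-numbered libraries of these groups deviated together, and with the replicate number as a block the adjusted p was 0.0169. The call was lost with DESeq2 size factors (0.0532), with no filter on low counts (0.0771), with only these groups in the fit (0.0748), without the 3 libraries that stood apart (0.0969), and in 5 of the 6 fits that left out a library of either group (0.0536 to 0.258); it was kept without miR-155 replicate 3. YWHAZ and YWHAE, which held an 8mer and a 7mer-m8 for miR-155, were not lower with it beyond their spread. YWHAZ was at 300, 365 and 318 CPM against 348, 317 and 335, a change of -0.03 (interval -0.24 to 0.19). Of the 654 genes whose best site was an 8mer for miR-155, 29.4% were called lower and the median was -0.23. YWHAE changed by 0.17 (interval -0.05 to 0.39).

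SFN rose with each of the 3 miRNAs that share a seed, and was the only member called with any of them. It was at 3.98, 3.16 and 3.92 CPM in the empty vector libraries of batch 2. It was at 6.46, 5.65 and 6.18 CPM with miR-302a, at 6.54, 7.83 and 7.02 with miR-372, and at 6.48, 5.84 and 6.0 with miR-373. All 9 of these libraries lay above all 3 controls. The only other members without overlap were YWHAE with miR-302a and YWHAH with miR-373, both higher and not called (0.10 each), where 29.5%, 30.1% and 27% of all genes did not overlap with miR-302a, miR-372 and miR-373 in turn. The change was 0.73 with miR-302a (SE 0.164, adjusted p = 0.0099), 0.95 with miR-372 (SE 0.161, adjusted p = 0.00074) and 0.73 with miR-373 (SE 0.161, adjusted p = 0.011), or 1.65, 1.93 and 1.65 times the control. Over all genes tested, 7.88%, 11.4% and 5.13% were called in these comparisons. The 3 comparisons share their controls, and without the second empty vector library, the lowest for SFN, the adjusted p was 0.0642 with miR-302a and 0.0787 with miR-373. Without the 3 libraries that stood apart the changes were 0.78, 0.89 and 0.73, with adjusted p-values of 0.00233, 0.000554 and 0.00214. That setting, chosen after seeing the data, called more genes of every kind. Genes called were 3430, 2019 and 1695 of 14184, beside 1107, 1599 and 721 of 14054 with all libraries. The values rest on few reads: a batch 2 library held 48 to 212 reads of SFN, and the 47 reads of the lowest library of all, in batch 1, have an exact 95% Poisson interval of 34.5 to 62.5, which covers counting error alone.

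Over the 3 miRNAs together, SFN stood 0.80 above the empty vector on the log2 scale (SE 0.138, adjusted p = 0.00056), with 15.4% of all genes called. It also stood 0.49 above the mean of miR-133a and miR-155 (SE 0.104, adjusted p = 0.0013), a comparison without the empty vector in which 27.8% of all genes were called. SFN was at 4.64, 5.69 and 4.68 CPM with miR-133a, also above every control, but this change of 0.44 (SE 0.168, adjusted p = 0.14) did not pass the test. With miR-155 it was at 3.78, 5.12 and 3.54 CPM, overlapping the controls (0.17, SE 0.171, adjusted p = 0.58). In batch 1, SFN ranged from 2.27 to 3.78 CPM in all 6 libraries. The 3 same-seed miRNAs were compared in 3 pairs, and edgeR called 0 of 7 members in each, where 0% of all genes were called; DESeq2 called 0 members and 0 had an unadjusted p under 0.05. For SFN the differences were -0.23 between miR-302a and miR-372 (95% interval -0.54 to 0.09), 0.00 between miR-302a and miR-373 (-0.32 to 0.32) and 0.22 between miR-372 and miR-373 (-0.09 to 0.54), so that differences within these intervals could not be seen with 3 libraries a group.

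**Figure D3:**
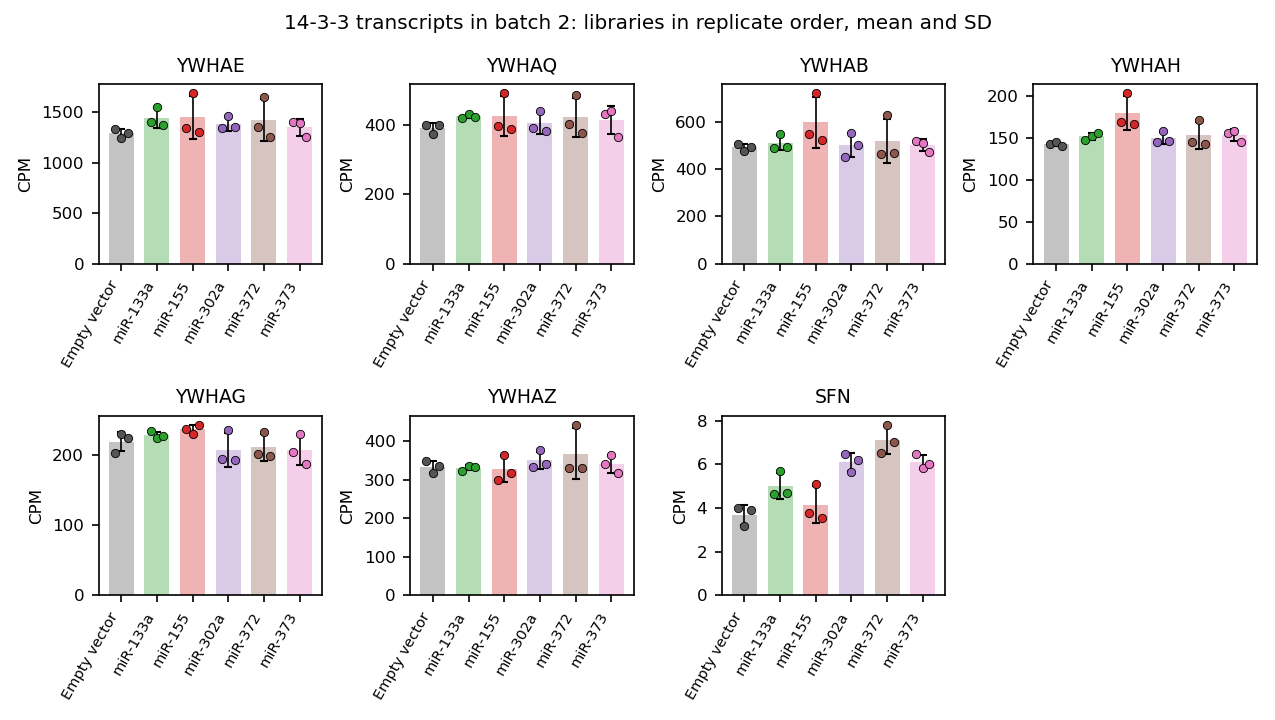
CPM of each 14-3-3 transcript in batch 2, with 1 point per library in replicate order, bars for the mean and error bars for the SD (n = 3 per group). SFN lies between 5.65 and 7.83 CPM in the 9 same-seed libraries, above the empty vector at 3.16 to 3.98, and the second libraries of miR-155 and miR-372 are the highest of their groups for YWHAB, YWHAE, YWHAH, YWHAQ and YWHAZ.

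The members with a site for the shared seed were not lower with any of the 3 miRNAs beyond the spread between libraries. YWHAZ, with its 8mer, was at 348, 317 and 335 CPM in the empty vector. It was at 333, 376.6 and 342 CPM with miR-302a, at 331, 444 and 330 with miR-372, and at 342, 363 and 318 with miR-373, all overlapping the controls. Its changes were 0.07, 0.14 and 0.03, with intervals of -0.14 to 0.29, -0.07 to 0.36 and -0.18 to 0.25. Genes whose best site was such an 8mer numbered 562, of which 23.7%, 29.5% and 18.9% were called lower with miR-302a, miR-372 and miR-373 in turn, with medians of -0.18, -0.20 and -0.13. YWHAQ, with its 7mer-m8, changed by 0.05, 0.11 and 0.08 (adjusted p = 0.81, 0.53 and 0.76). Of 2880 genes with that class of site, 7.01%, 9.06% and 4.51% were called lower. The YWHAQ groups overlapped in all 3 comparisons, at 367 to 486 CPM against 391 ± 15.8 in the empty vector.

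YWHAG had the lowest change of the 6 YWHA genes with the shared seed: -0.08, -0.05 and -0.08. Its libraries overlapped those of the empty vector, and none of the 3 changes passed the test (adjusted p = 0.64, 0.74 and 0.72). Between the mean of the 3 miRNAs and the mean of miR-133a and miR-155, YWHAG differed by -0.16 (SE 0.0587, adjusted p = 0.053). Same-numbered libraries deviated together in 3 of the 6 pairs of groups across this comparison, and with the replicate number as a block YWHAG and YWHAH were called lower (adjusted p = 0.0189 and 0.0415). The block called 4696 of 14054 genes tested, beside 3909 of 14054 without it. The difference for YWHAG was -0.23 (adjusted p = 0.00103) without the 3 libraries that stood apart, a setting in which YWHAH and YWHAB were called lower too, by 0.12 each (adjusted p = 0.0332 and 0.0495). In that setting 4846 of 14184 genes tested were called. Leaving out the second miR-302a, miR-372 or miR-373 library alone also gave YWHAG an adjusted p under the threshold (0.0122, 0.0181 and 0.0257). Genes called in these fits were 4223 of 14192, 4530 of 14205 and 3782 of 14189.

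**Figure D4:**
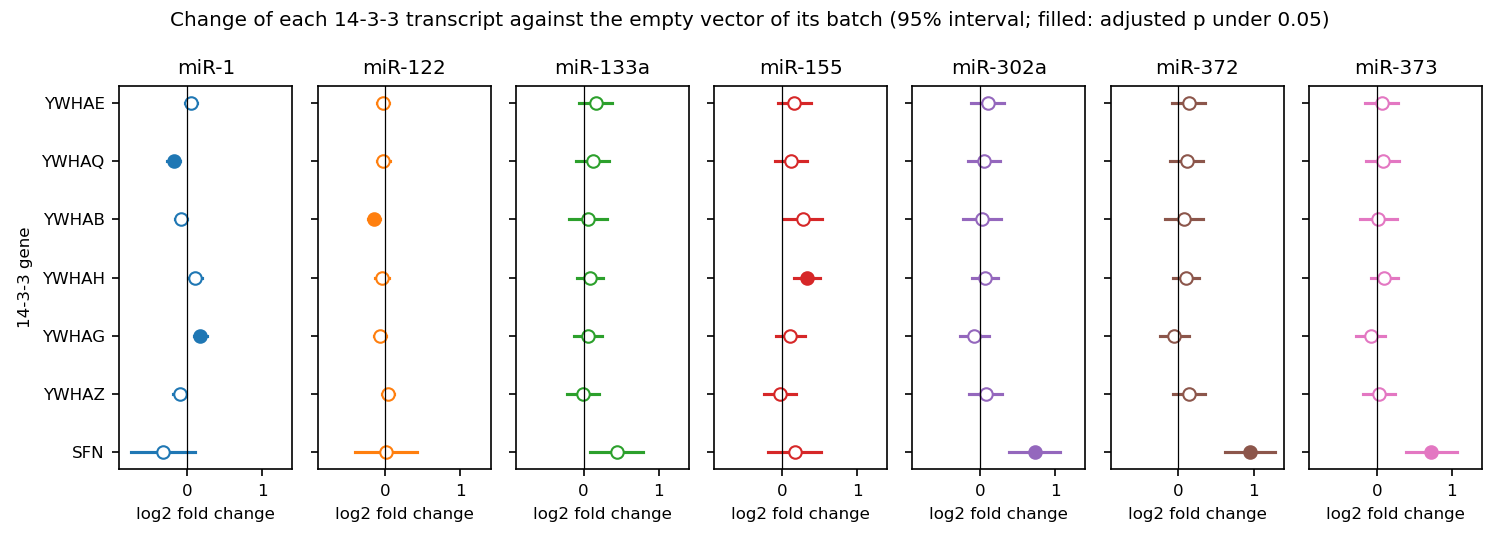
Log2 fold change of each 14-3-3 transcript against the empty vector of its batch (points) with its 95% interval (lines), 1 panel per miRNA; filled points passed the test at an adjusted p of 0.05. Filled points are YWHAQ and YWHAG for miR-1, YWHAB for miR-122, YWHAH for miR-155 and SFN for each same-seed miRNA, and intervals are narrower in batch 1 than in batch 2 for the YWHA genes.

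Across the 49 tests against the empty vector, 2 were called lower, 5 higher and 42 were not called. Per comparison with the empty vector, 3.3 to 13.7% of all genes tested were called lower and 1.37 to 10.8% higher. Of the 13 combinations with a site, YWHAQ with miR-1 and YWHAB with miR-122 were the 2 called lower. For scale, 4.51 to 36.2% of all genes with a site were called lower, depending on the miRNA and the class of site. The largest change of a YWHA gene was 0.33. The 95% interval of a YWHA gene reached 0.08 to 0.09 to either side on the log2 scale in batch 1 and 0.17 to 0.25 in batch 2, so that a change of the size called for YWHAQ with miR-1 would lie near or within the interval in batch 2. Of the 30 tests of YWHA genes in batch 2, 25 had a change above 0, and these tests share 3 control libraries. The median change of the members was -0.08 with miR-1, -0.03 with miR-122, 0.09 with miR-133a, 0.17 with miR-155, and 0.07, 0.11 and 0.07 with the same-seed miRNAs, beside medians between 0.00 and 0.01 over all genes tested.

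The summed level of the family was compared between groups as means, without a test. It was 2780 ± 79 CPM (SD, n = 2) in the empty vector of batch 1, 2776 ± 73 with miR-1 and 2699 ± 3 with miR-122. In batch 2 it was 2874 ± 75 CPM (SD, n = 3) in the empty vector, between 2975 ± 193 with miR-373 and 3221 ± 423 with miR-155 elsewhere, and every group mean lay above the control. The highest sums, 3708 and 3624 CPM, were those of the second libraries of miR-155 and miR-372. In the second miR-155 library YWHAB lay 0.55, YWHAH 0.51, YWHAE 0.39 and YWHAQ 0.33 above the mean of the empty vector on the log2 scale, while YWHAG lay 0.07 above it. In the second miR-372 library YWHAZ lay 0.41 and YWHAE 0.36 above it, and YWHAG 0.09. Higher sums were not confined to these libraries. The miR-133a libraries, at 3027, 3252 and 3013 CPM, lay above all empty vector libraries, at 2791 to 2938. So did miR-155 replicates 1 and 3, at 3000 and 2954 CPM. In contrast, miR-372 replicates 1 and 3 were at 2902 and 2779 CPM, and the miR-302a and miR-373 sums overlapped the empty vector. The cause of the higher sums was not tested.

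**Figure D5:**
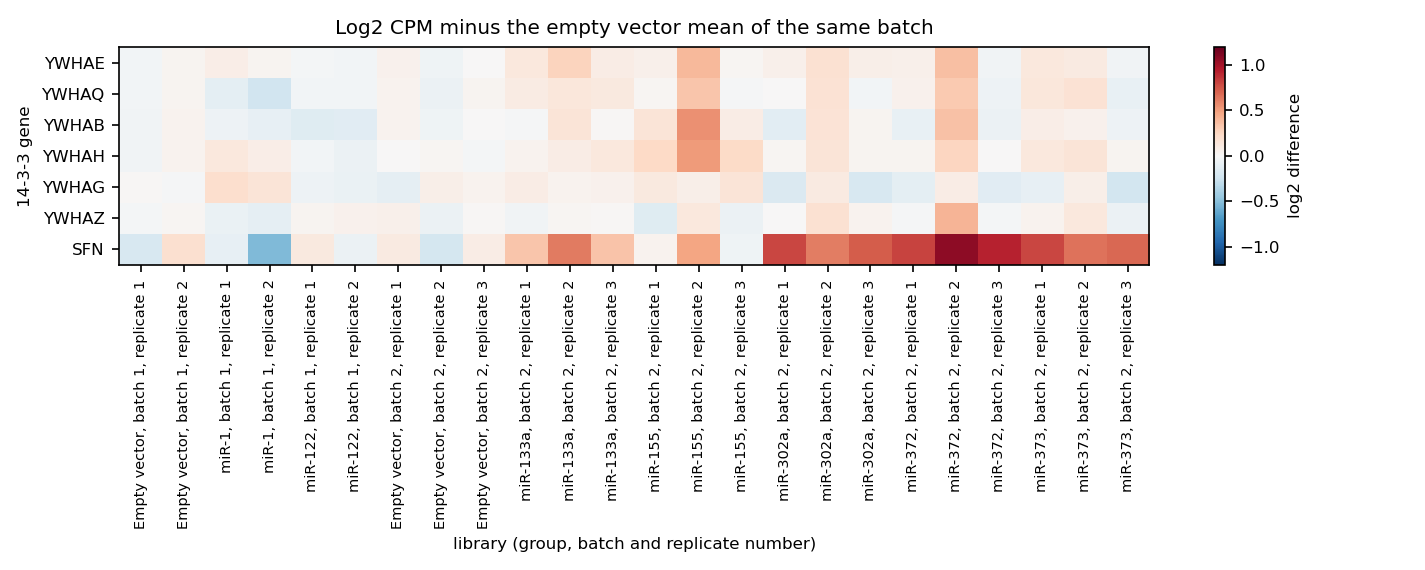
Log2 CPM of each 14-3-3 transcript (rows) in each of the 24 libraries (columns) minus the mean of the empty vector libraries of the same batch, in colour from blue (lower) to red (higher). The columns of the second miR-155 and miR-372 libraries are red for most YWHA genes, up to 0.55 for YWHAB, and the SFN row is red over all 9 same-seed libraries.

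The members fell apart in how they varied over the 24 libraries, as deviations from the empty vector of the same batch. YWHAB, YWHAE, YWHAH and YWHAQ varied together, with Pearson's r between 0.62 for YWHAH and YWHAQ and 0.875 for YWHAB and YWHAH. YWHAG varied less with them, with r of 0.496 to YWHAH, 0.351 to YWHAB, 0.325 to YWHAE and 0.147 to YWHAQ, and its r was -0.00732 to YWHAZ and -0.487 to SFN. YWHAZ had r between 0.313 to YWHAH and 0.754 to YWHAQ. These are descriptions: the libraries share controls within a batch, and those that stood apart weigh on each value. The 3 most alike of 10402 genes were ACTB, DYNLL1 and TRAPPC4 for YWHAB (r = 0.934 to 0.942), EBNA1BP2, CISD2 and RAN for YWHAE (0.957 to 0.965), and RAB18, TRA2B and SUPT4H1 for YWHAQ (0.924 to 0.931). They were RER1, PSMB2 and CDKN2AIPNL for YWHAH (0.897 to 0.901), ALG8, PTGES3 and ANP32A for YWHAZ (0.858 to 0.872), and EZR, PSMD2 and SLC4A2 for YWHAG (0.852 to 0.876). For SFN they were TCEAL8, ACP1 and EIF2A (0.921 to 0.945). No member was among the 3 most alike of another.

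The proteins that 14-3-3 binds were followed through a list of 55 clients and partners, of which 55 were tested in batch 1 and 54 in batch 2. With miR-1, 5 fell and 18 rose, 41.8% of the list beside 24.5% of all genes, where 13.7% of all genes fell and 10.8% rose, and the median change of the list was 0.08 beside 0.00 over all genes. The lowest called was HDAC4, a class IIa histone deacetylase that 14-3-3 keeps in the cytoplasm, at 12.3 ± 0.0885 against 16.3 ± 1.38 CPM (SD, n = 2; log2 change -0.40, SE 0.0937, adjusted p = 0.0038). The highest was IRS2, an adaptor of the insulin receptor, at 78.0 ± 1.02 against 61.9 ± 3.76 CPM (0.33, SE 0.0541, adjusted p = 0.00016). Both held a 7mer or 8mer for miR-1 in the 3′UTR. With miR-122, 4 fell and 0 rose, 7.27% of the list beside 5.92% of all genes. The lowest was PFKFB2, a kinase and phosphatase that sets fructose 2,6-bisphosphate, at 18.6 ± 1.25 against 24.7 ± 2.02 CPM (-0.41, SE 0.0824, adjusted p = 0.004), and it held a site.

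In batch 2, 1 client fell and 3 rose with miR-133a (7.41% beside 5.34% of all genes), and 4 fell and 1 rose with miR-155 (9.26% beside 7.63%). BRAF, a kinase of the MAPK cascade, fell with miR-133a from 55.7 ± 0.72 to 41.4 ± 3.92 CPM (SD, n = 3; -0.43, SE 0.104, adjusted p = 0.018). MARK2, a kinase of microtubule-associated proteins, fell with miR-155 from 44.2 ± 3.87 to 30.8 ± 2.38 CPM (-0.52, SE 0.0942, adjusted p = 0.0016). Each held a site for the miRNA concerned. BAD, the pro-apoptotic protein that 14-3-3 holds inactive when it is phosphorylated, rose with both, from 35.5 ± 1.0 CPM to 48.7 ± 2.84 with miR-133a (0.46, adjusted p = 0.019) and 50.1 ± 3.36 with miR-155 (0.50, adjusted p = 0.0091), and held no site for either. With miR-302a 3 clients fell and 1 rose (7.41% beside 7.88% of all genes), with miR-372 4 fell and 1 rose (9.26% beside 11.4%), and with miR-373 3 fell and 0 rose (5.56% beside 5.13%). HDAC9, a relative of HDAC4, was the lowest called with all 3, at 6.95 ± 1.19 CPM in the empty vector and 4.21 ± 1.43, 3.59 ± 0.28 and 3.74 ± 0.934 with the miRNAs (-0.73, -0.94 and -0.86, adjusted p = 0.037, 0.0064 and 0.018), and it held a site for their seed. IRS2 was the highest called with miR-302a and miR-372 (0.36 each, adjusted p = 0.025 and 0.021), and it too held a site for their seed. Median changes of the list in batch 2 lay between -0.03 and 0.00 on the log2 scale.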

How the data were processed

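RNA-seq libraries were made from poly(A)+ RNA with a directional kit. The authors clipped adapters, mapped to hg19 with TopHat2 2.1.1 and counted exon reads by strand with featureCounts at a mapping quality of at least 50, which keeps reads placed at a single locus; they deposited raw counts per gene, as 1 table per batch, with a column of summed exon length. Of the 25 annotated 14-3-3 pseudogenes, 0 were among the counted genes. They belong to YWHAZ (9), YWHAQ (8), YWHAE (6) and YWHAB (2). How many reads of these genes were dropped as shared with a pseudogene was not measured, and the order per length is not corrected for it. The windows of some sites are not reported here. Tables of the authors' own comparisons (log2 fold changes, mean log2 CPM, test statistics, p-values and q-values) were not used, and 0 per-sample columns were left unused.

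Groups and replicate numbers came from the labels. Replicates were separately transduced cultures. Genes were matched by identifier to GENCODE v44lift37 (28543 of 29794 with a symbol), and 3′UTRs of GRCh37 were searched for sites. The counts of each batch entered edgeR 4.0.16 (R 4.3.3) with filterByExpr (minimum count 10), TMM factors and 1 quasi-likelihood model of the groups. Batches were fitted apart, each with its own empty vector. Benjamini-Hochberg adjustment ran over all genes tested in a comparison, with a threshold of 0.05. The SE is the size of the log2 fold change divided by the root of the F statistic. CPM use TMM-scaled library sizes. The function was tested on simulated counts. The named genes were the 7 members, per comparison the lowest and highest called client, the 3 genes most alike to each member, and a known target per miRNA; members and lists were chosen with earlier results of these data known. Alternatives were DESeq2 1.42.0 size factors and Wald test, no filter, a stricter filter (above 1 CPM in all libraries), a replicate block, a fit of the compared groups alone, every annotated 3′UTR, and leaving out each library. Leaving out 3 libraries of batch 2 together was chosen after seeing the data.

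Same-numbered libraries deviated together (every correlation of deviations from the group means over 0.1) for miR-133a with miR-155 (0.183, 0.345 and 0.198) and miR-302a with miR-372 (0.227, 0.336 and 0.161). Across the comparison of the mean of the same-seed miRNAs with the mean of miR-133a and miR-155, they did so for miR-155 with miR-372 (0.273, 0.614 and 0.451), miR-133a with miR-372 (0.167, 0.3 and 0.137) and miR-155 with miR-302a (0.131, 0.202 and 0.112), and not for the other 3 pairs of groups. They did not for any group with its empty vector or for miR-1 with miR-122.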

Additional observations from a re-analysis of the deposited data

Results flagged for a closer look

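In 6 cases the change of a 14-3-3 transcript differed between miRNAs in a direct test of the difference (edgeR, Benjamini-Hochberg over all genes). Between miR-1 and miR-122 these were YWHAG (0.25 on the log2 scale), YWHAH (0.16), YWHAQ (-0.15) and YWHAZ (-0.14), each with both miR-1 libraries on the same side of both miR-122 libraries. Of all genes tested, 31.2% were called in this comparison and 67.3% did not overlap. YWHAZ and YWHAH were called in this test although neither was called against the empty vector for either miRNA. All but YWHAG lost their calls without some single library, as given above. Between miR-133a and miR-155 it was YWHAH (-0.25), where 16.7% of all genes were called. That call was lost without most single libraries of these groups. Between the mean of the 3 miRNAs with a common seed and the mean of miR-133a and miR-155 it was SFN (0.49), where 27.8% of all genes were called. Groups held 2 or 3 libraries, so that no test for a single outlying library was made.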

How the results depend on the processing

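All 49 changes against the empty vector kept their sign with DESeq2 size factors, the DESeq2 Wald test, no filter, the filter of more than 1 CPM, the replicate block and only the groups compared, and 36 kept it whichever library was left out. With miR-122, the count of called members went from 1 to 0 with the DESeq2 Wald test and with only the groups compared. Over all genes, 410 of 14348 and 739 of 14193 were called there, beside 849 of 14348 in the main fit. With miR-155 the count of members went to 0 with only the groups compared, and for miR-1 against miR-122 from 4 to 5 (YWHAE higher). All genes called went from 1073 of 14054 to 782 of 13602, and from 4481 of 14348 to 5273 of 14182. Between miR-133a and miR-155 the count of members went from 1 to 0 with DESeq2 size factors, no filter, only the groups compared, and the 3 libraries left out. All genes called there were 2338 of 14054, 2369 of 22466, 2268 of 13560 and 3394 of 14184 in turn. The main fit called 2354 of 14054. Between the mean of the same-seed miRNAs and that of miR-133a and miR-155 the count of members went from 1 to 4 with the 3 libraries left out. All genes called went from 3909 of 14054 to 4846 of 14184. Over single libraries left out, the count ranged from 1 to 4 for miR-1 (2 with all libraries), from 1 to 2 for miR-1 against miR-122 (4 with all libraries), from 0 to 1 for miR-133a against miR-155 and for miR-122, miR-155, miR-302a and miR-373 against the empty vector, and from 1 to 3 for the comparison of the means. With single libraries left out in batch 1, the lone library of a group was assumed to vary like the others. The cause of these changes was not tested. Without the 3 libraries, 2277 genes were called with miR-133a, beside 750 with all libraries. The count of 13 combinations with a site was the same when a site in any annotated 3′UTR was counted. That count could not fall, since the longest 3′UTR is among them, so it does not show how sites depend on the isoform.

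With the replicate number as a block, the count was 0 in place of 1 for miR-122 (YWHAB, adjusted p = 0.0922), with 656 of 14348 genes called in place of 849. The count of members was 3 in place of 1 for the comparison of the means (SFN, and YWHAG and YWHAH lower, adjusted p = 0.0189 and 0.0415). There 4696 of 14054 genes were called in place of 3909. The count of members was the same in the other comparisons. For miR-122 the libraries share only a number; for the means, 3 of the 6 pairs of groups across the comparison deviated together.

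Depth limits SFN, with 47 to 212 reads per library; for the YWHA genes the spread between libraries sets the interval.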
